A study of Mus musculus with 677 samples.

Results

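Olfm4 encodes olfactomedin 4, a secreted glycoprotein of the olfactomedin family, and was followed as 1 gene of 23420 in a table of single-cell expression from the mouse intestinal epithelium. It was chosen by its own values in these cells, for 3 features, namely a decline from stem cells to enterocytes, its levels in secretory cells and its spread between cells. Those features are given below as descriptions without a test. The cells came from C57BL/6 mice lacking Atg16l2 (Atg16l2 knockout, KO, 50.5% of 677 cells) and from wild-type C57BL/6 mice (WT, 49.5%). Atg16l2 is a homologue of the autophagy gene Atg16l1, and the study examined the part such disease-linked autophagy genes play in mouse tissues. Each library was 1 cell, prepared by SMART-Seq2, a plate-based full-length cDNA method. Library names gave a run (1 or 2), a code M1 or M2 and 1 of 9 cell types, and each code within a genotype was read as 1 animal (n = 2 per genotype). The labels do not give age, the design of the knockout allele, or whether a code stands for the same animal in both runs, so a difference between runs can also be one between animals.

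In the mouse small intestine, Olfm4 is known as a marker of the Lgr5-positive stem cells at the crypt base. Daughter cells pass through a transit amplifying (TA) stage and mature on the way to the villus as absorptive enterocytes or as secretory goblet, Paneth, enteroendocrine and tuft cells. Notch signalling, which keeps crypt cells out of the secretory lineages, sustains Olfm4 in the mouse intestine, and the human gene is also known to respond to NF-kB, a transcription factor of inflammation.

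Values are TPM, a length-scaled measure of transcript abundance with the same total in every cell, so a level is a share of the cell's messenger RNA and depth is unknown. The animals contributed 25.4% (KO M1), 25.1% (KO M2), 24.8% (WT M1) and 24.7% (WT M2) of the cells. A KO cell had a median of 6170 genes above 0 TPM and a WT cell 6042, and the medians were 5730.5 in run 2 and 6477 in run 1. Atg16l2 itself was above 0 TPM in 0 KO cells, which allows a share of up to 0.877% of cells listed above 0 TPM (3 divided by the number of cells), and in 38 WT cells (11.3%). The 6 stem markers Lgr5, Ascl2, Smoc2, Rgmb, Tnfrsf19 and Axin2 summed to 880 to 939 TPM over animals in the cells annotated Stem, against 446 to 548 TPM in TA cells and 12.5 to 40.7 TPM in enterocytes, and all 6 were detected in Stem cells. Whether the authors used Olfm4 to annotate the cell types is not given in the sources used here.

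The RefSeq promoter of Olfm4 is shown because the Notch and NF-kB links of the gene are usually discussed in terms of this region. It is chr14:80000052-80000301 of GRCm38.p6 on the plus strand, the 250 bases before the annotated start. The authors' own build is not given in the sources used here, and their values were not tied to these coordinates. Capitals mark an NF-kB consensus match, beginning 52 bases before the start, and the core TGGGAA bound by the Notch effector RBPJ, beginning 12 bases before it.
Olfm4 promoter: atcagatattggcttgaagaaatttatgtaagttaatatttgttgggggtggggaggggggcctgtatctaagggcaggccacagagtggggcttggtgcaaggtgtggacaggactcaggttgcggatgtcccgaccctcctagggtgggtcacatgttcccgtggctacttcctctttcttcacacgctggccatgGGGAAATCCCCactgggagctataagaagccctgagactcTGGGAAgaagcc
Both strands were searched. The RBPJ core occurred in 21.59% and the NF-kB consensus, which reads nearly the same on both strands, in 7.25% of 32851 RefSeq promoters of the same length. The letters TATAA, as in the TATA element of promoters, began 32 bases before the start and occurred in 22.78% of the promoters. The core CTTTGA of the Wnt effectors TCF and LEF had no match in this window and occurred in 13.83% of them. The marked motifs do not overlap each other. These are matches of letters and show no binding. GENCODE lists 2 protein-coding transcripts of Olfm4, with 7 and 5 exons, of which the second starts 51 bases further upstream. That start falls inside the marked NF-kB match, so the TATAA letters and the RBPJ core lie downstream of it. Another Olfm4 transcript, classed as processed and not protein-coding, starts 16221 bases upstream. GENCODE also lists 1 noncoding gene, Gm6999, that overlaps Olfm4 on the same strand. Gm6999 has no row in the table, so how its reads would have been counted is unknown.

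Olfm4 was among the most abundant transcripts of Stem cells. Its mean was 15169.5 TPM in KO M1, 13021 TPM in KO M2, 17488 TPM in WT M1 and 18395 TPM in WT M2, or 16018 ± 2416 TPM over the animals (SD, n = 4). This was 1.60% of all transcripts, and only 2 genes of the 23420 had a higher mean, giving Olfm4 rank 3. Every one of the 96 Stem cells was above 0 TPM (95% exact binomial interval of the share 96.2% to 100%), and 71 of them exceeded 10000 TPM. Neutrophils, the blood cells that also express Olfm4 in mice, were set against this by 10 neutrophil and myeloid markers, which summed to 3.51 to 24.6 TPM over the animals in Stem cells and to a median of 1.475 TPM per Stem cell. No other measured member of the olfactomedin family came near this level in any type. Olfm1, a neuronal olfactomedin, reached 128.3 TPM in enteroendocrine cells, and Olfml2b, an extracellular matrix protein, 10.7 TPM in tuft cells.

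Along the absorptive lineage, Olfm4 was lower at each stage by the mean over animals, although animal means overlapped at the later steps. TA cells, the dividing daughters of stem cells, had 9353 TPM in KO M1, 8469.7 TPM in KO M2, 7450.1 TPM in WT M1 and 7337 TPM in WT M2, with 8152 ± 949 TPM over the animals (SD, n = 4) and rank 4 of all genes in every animal. All TA animal means lay below all Stem animal means, and the mean over Stem animals was 1.96 times that over TA animals. On the log2(TPM + 1) scale, the change of TA minus Stem averaged -0.97 ± 0.36 (SD, n = 4 animals).

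Early enterocyte progenitors, labelled Enterocyte.prog.early, were far below TA cells. They had 519.8 TPM in KO M1, 297.7 TPM in KO M2, 300.5 TPM in WT M1 and 549 TPM in WT M2, a change of -4.34 ± 0.49 from TA cells on the log2(TPM + 1) scale (SD, n = 4). The stages did not overlap in any animal mean, and the TA mean was 19.6 times the early progenitor mean. Within the early progenitors, 91 cells (64.1%, interval 55.6% to 71.96%) were above 0 TPM and 20 were at or above 1000 TPM. By their sums, the stem markers also differed more than the proliferation markers at this step. Over the 4 animals the 6 stem markers averaged a sum of 507 TPM in TA cells and 114.9 TPM in early progenitors. The 6 TA markers Mki67, Top2a, Pcna, Mcm5, Ccnb1 and Cdk1 averaged a sum of 1208 TPM in TA cells and 965 TPM in early progenitors. All 6 stem markers were lower in early progenitors, but the TA markers did not move together. Pcna (514.9 TPM in TA cells, 270.7 TPM in early progenitors), Mcm5 and Top2a were lower in early progenitors. Ccnb1 (166.3 TPM in TA cells, 234.1 TPM in early progenitors), Mki67 and Cdk1 were higher, so the TA marker sum does not describe each marker.

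In late enterocyte progenitors, labelled Enterocyte.prog.late, the means were 335.1 TPM in KO M1, 4.775 TPM in KO M2, 5.28 TPM in WT M1 and 31.9 TPM in WT M2. KO M1 stood far above the other animals, and 1 of its cells with 3098 TPM held 73.02% of all Olfm4 TPM of this type. Late minus early progenitors was -3.99 ± 2.36 on the log2(TPM + 1) scale (SD, n = 4), with -0.63 in KO M1, -5.69 in KO M2, -5.59 in WT M1 and -4.06 in WT M2. In all animals but KO M1 this step was larger in size than that from TA cells to early progenitors, which was -4.17 in KO M1, -4.83 in KO M2, -4.63 in WT M1 and -3.74 in WT M2. Of 75 late progenitors, 21 were above 0 TPM (28%).

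Mature enterocytes, the absorptive cells of the villus, had 319.7 TPM in KO M1, 17.6 TPM in KO M2, 3.66 TPM in WT M1 and 0 TPM in WT M2. The change from late progenitors was -0.96 ± 2.87 on the log2(TPM + 1) scale (SD, n = 4). Animal means of these types overlapped, and KO M2 rose by 1.69. Only 5 of 58 enterocytes were above 0 TPM (8.62%, interval 2.86% to 18.98%), and a single cell of KO M1 with 3837 TPM held 91.3% of the Olfm4 of the type. The mean over Stem animals was 187.9 times that over enterocyte animals, and enterocytes minus Stem was -10.26 ± 3.68 on the log2(TPM + 1) scale (SD, n = 4). Without the top cell of each animal in each type, this difference was -13.80.

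**Figure D1:**
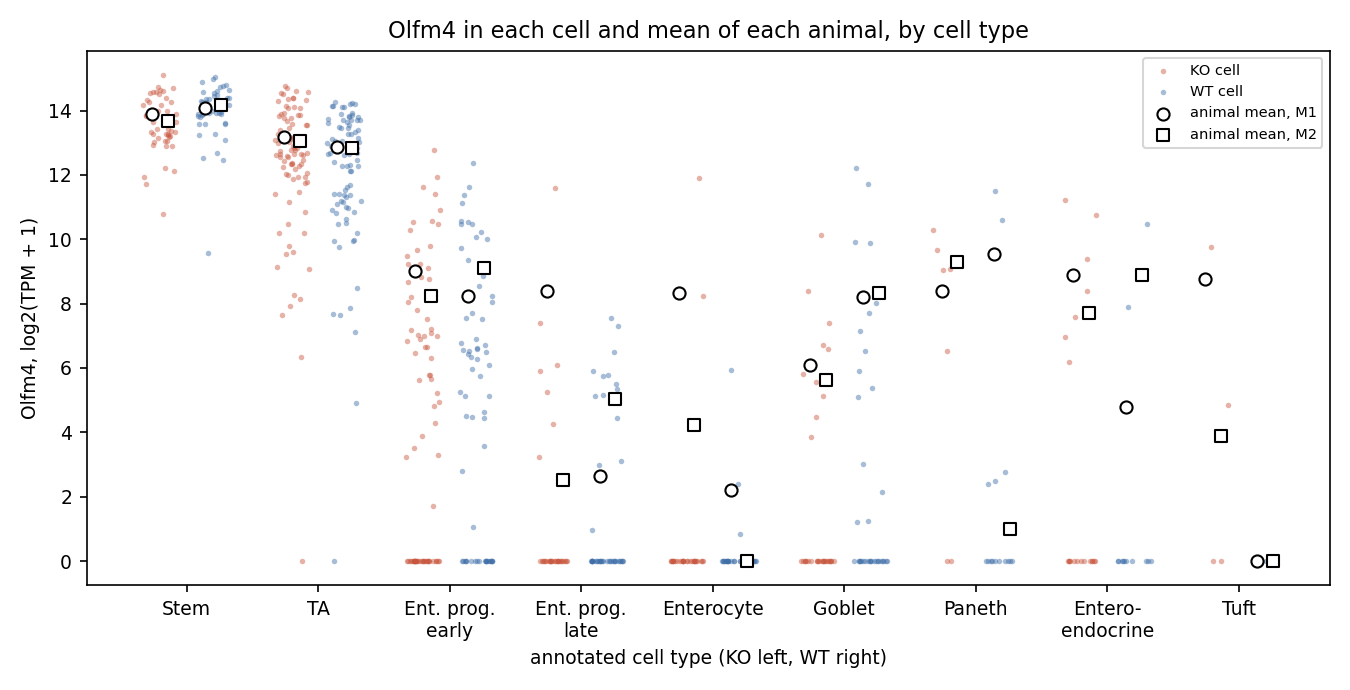
Olfm4 as log2(TPM + 1) in every cell (dots) and the mean TPM of each animal on the same scale (open circles M1, open squares M2), for 9 annotated types with KO at left and WT at right. All 96 Stem cells lie above 0, while 53 of 58 enterocytes lie at 0 and the KO M1 enterocyte mean is set by 1 cell.

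By the mean over animals, the secretory types lay below TA cells and above late progenitors and enterocytes. Their animal means overlapped those of the latter types. Few cells carried these levels, and the median cell of each secretory type was at 0 TPM. Paneth cells, which make antimicrobial granules, had 338.2 TPM in KO M1, 627 TPM in KO M2, 740.2 TPM in WT M1 and 0.978 TPM in WT M2, with 10 of 22 cells above 0 TPM. WT M2 contributed 9 of these cells and none above 4.57 TPM, so the other 3 animals carried the mean of 427 ± 330 TPM (SD, n = 4). The 9 Paneth markers summed to 132452 to 436721 TPM over the animals in this type, which shrinks the share left to any other transcript.

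Goblet cells, which make mucus, had 67.4 TPM in KO M1, 48.8 TPM in KO M2, 292.9 TPM in WT M1 and 321.4 TPM in WT M2, and 27 of 70 cells were above 0 TPM (38.6%). Enteroendocrine cells, which secrete hormones, had 474 TPM in KO M1, 208.6 TPM in KO M2, 26.5 TPM in WT M1 and 477 TPM in WT M2, with 9 of 32 cells above 0 TPM. Without the highest enteroendocrine cell of each animal, these means were 0 TPM in KO M1, WT M1 and WT M2 and 98.9 TPM in KO M2. The KO and WT values of the goblet cells did not overlap, and those of the enteroendocrine cells did. Tuft cells, chemosensory cells of which only 7 were annotated, were above 0 TPM in 2 cells, both KO.

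Ordered by the mean over animals, the types ran Stem, TA, Paneth, early progenitor, enteroendocrine, goblet, tuft, late progenitor and enterocyte. In this order the animal means of neighbours were separate between Stem and TA and between TA and Paneth, and every later pair of neighbours overlapped.

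Outside Stem cells, TA cells and early progenitors, 11 cells were at or above 1000 TPM. The enterocyte with 3837 TPM had 38753 TPM of enterocyte markers, against a median of 14099 TPM in its type. Its stem markers summed to 315.4 TPM and its Paneth markers to 2324 TPM, against type medians of 12.7 TPM and 64.9 TPM. The late progenitor with 3098 TPM likewise had 300.7 TPM of stem markers and 5935 TPM of Paneth markers, against medians of 24.4 TPM and 35.98 TPM. Markers of more than one type therefore stood high in both of these cells, and the part of mixed material in their Olfm4 was not tested.

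The 3 high cells labelled Enteroendocrine had 88.5, 0 and 556 TPM of enteroendocrine markers, against a median of 32671 TPM in that type. Their goblet markers summed to 9932, 4419.9 and 7246 TPM, against a median of 945 TPM. The defining markers of these 3 cells thus went against their label. They were the highest enteroendocrine cells of KO M1, KO M2 and WT M2, so the level and place of this type rest largely on them. The 3 high goblet cells had 9945, 36543 and 15760 TPM of goblet markers, below the median of 90453 TPM, and 486, 199.6 and 603 TPM of stem markers, above the median of 68.98 TPM. The 3 high Paneth cells, at 2901, 1535 and 1257 TPM of Olfm4, had 63417 TPM of Paneth markers or less, against a median of 408745 TPM, and 320.4, 291.4 and 393 TPM of stem markers, against a median of 13.7 TPM. In all 6 of these goblet and Paneth cells the stem markers were above, and the markers of the labelled type below, the type median. The 3 goblet cells had 8965, 8502 and 5804 genes above 0 TPM, against a type median of 5816.5. The 3 Paneth cells had 10472, 6494 and 6615, against 5134. Paneth markers in the goblet cells summed to 97.95, 2417 and 6708 TPM, against a median of 2385 TPM. Goblet markers in the Paneth cells summed to 24291.5, 1064 and 401 TPM, against 1993 TPM. The part of mixed material in their Olfm4 was not tested.

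Olfm4 differed widely between cells of one type. In Stem cells it ran from 757 to 35238 TPM with a median of 15563 TPM, and its coefficient of variation (CV, SD over mean) was 45.95%. Of the genes with a mean of at least 1000 TPM in Stem cells, 86.99% had a smaller CV, and the median CV of these genes was 30.8%. In TA cells the CV was 79.7%, larger than that of 98.5% of the genes at this level, with a median CV of 35.8%. The TA cells, 25.8% of all cells, held 2 cells listed at 0 TPM and reached 27776 TPM, with a median of 6543 TPM. The distributions of TA cells and Stem cells therefore overlapped in single cells although their animal means did not.

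**Figure D2:**
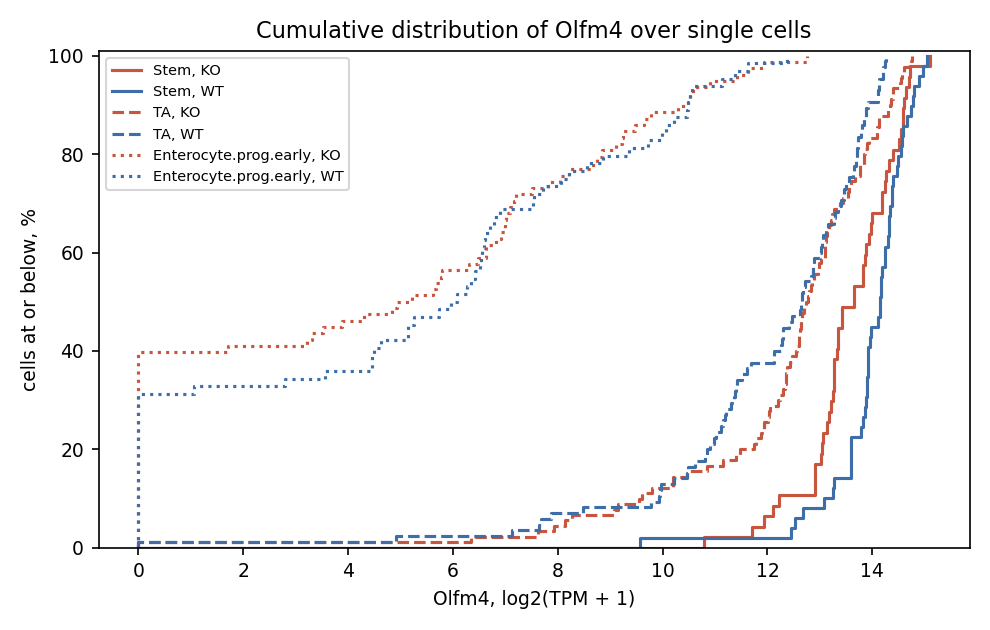
Percent of cells at or below a given Olfm4 level, as log2(TPM + 1), for Stem (solid), TA (dashed) and early enterocyte progenitor cells (dotted), KO in red and WT in blue. The TA curves extend from 0 TPM into the Stem range, and 35.9% of early progenitors are at 0.

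Between Stem cells, the level of Olfm4 was set against every gene above 0 TPM in at least 50% of them, after the mean of each combination of animal and run was removed (96 cells, 5278 genes, Spearman's rho). Cells share animal and run, and TPM values in a cell share a fixed sum, so these values describe the cells only. The highest rho were those of Aqp1, a water channel (0.48), Kcnq1ot1, an antisense noncoding RNA of the imprinted Kcnq1 locus (0.46), Cd74, the invariant chain of MHC class II (0.44), Slc12a2, the basolateral sodium, potassium and chloride cotransporter (0.44), and Grk4, a kinase of G protein-coupled receptors (0.42). The lowest were those of Lgals2, a galectin (-0.54), Dmbt1, a mucosal scavenger receptor (-0.47), Krt8, a keratin (-0.46), Ldha, lactate dehydrogenase A (-0.43), and Rfc2, a subunit of the replication clamp loader (-0.41). The middle of all genes was near 0, at -0.017, with 90% of genes between -0.22 and 0.19. Lgr5, the receptor that defines crypt base stem cells, had 0.37, while the other 5 stem markers had 0.13 to 0.18, within the range of most genes. The sums of markers had 0.33 for stem, -0.33 for proliferation and -0.31 for goblet markers, and the number of genes above 0 TPM had -0.24.

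Between TA cells the same ranking over 6440 genes was led by Slc12a2 (0.58), Clca4, a chloride channel accessory family member (0.53), Soat1, a cholesterol esterifying enzyme (0.52), Utrn, utrophin (0.51) and Cd81, a tetraspanin (0.51). Lgals2 was again lowest (-0.66), before Pycard, an inflammasome adaptor (-0.62), Ldha (-0.62), Krt19, a keratin (-0.57), and Dmbt1 (-0.56). Here the stem marker sum had a rho of 0.60 and Lgr5 0.51, while the proliferation marker sum had -0.088 and the number of genes per cell -0.015. In both cell types Slc12a2 stood among the 5 highest and Lgals2, Dmbt1 and Ldha among the 5 lowest.

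Over 32 profiles of animal and type (8 types with at least 3 cells per animal), the gene most like Olfm4 by Pearson's r on the log2(TPM + 1) scale was Ifitm3, an interferon-induced membrane protein (0.91). It was the only one of 6362 ranked genes above 0.9, and the median r was 0.21. Ifitm3 averaged 1265 TPM in Stem cells, 867 TPM in TA cells, 92.3 TPM in early progenitors and 6.33 TPM in enterocytes. Next came Cdca7, a cell division gene (0.87), Slc12a2 (0.87), Ascl2, the stem cell transcription factor (0.87), Paics, a purine synthesis enzyme (0.86), Prelp, a matrix proteoglycan (0.85), Cdo1, cysteine dioxygenase (0.85), Smoc2, a secreted matricellular protein (0.84), and Mcm7 and Hells, a replicative helicase subunit and a chromatin remodeller (0.84 each). Lgr5 ranked 18 (0.82), with 127.2 TPM in Stem cells and 37.8 TPM in TA cells. The profiles share animals and types and are not independent.

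**Figure D3:**
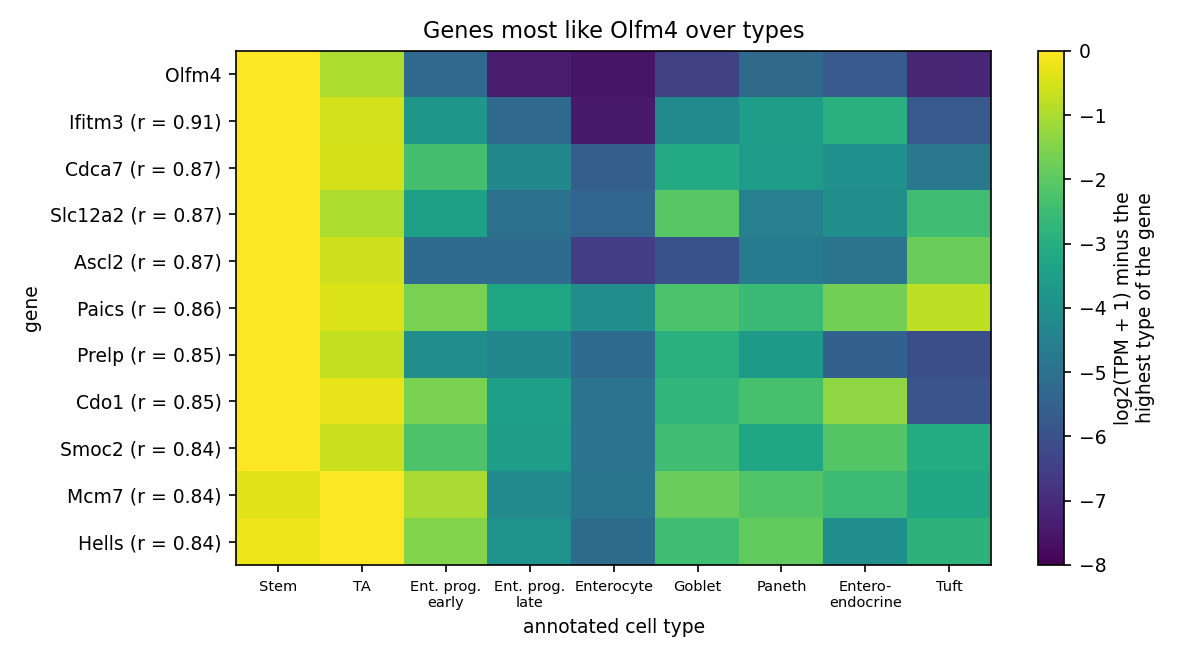
Olfm4 and the 10 genes whose profile over types was most like it, each as log2(TPM + 1) of the mean over animals minus the value in its highest type, with Pearson's r over 32 profiles beside the name. All are lower in enterocytes than in Stem cells, with the widest gaps in Olfm4 and in Ifitm3, which had 1265 TPM in Stem cells and 6.33 TPM in enterocytes.

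KO and WT were compared by animal, with each animal's mean TPM as log2(TPM + 1) tested in limma over all genes kept. In Stem cells Olfm4 was 15169.5 and 13021 TPM in the KO animals, against 17488 and 18395 TPM in the WT animals. Both KO animals lay below both WT animals, as did 15.8% of the 6764 genes tested, and KO minus WT was -0.35 ± 0.10 (SE, n = 2 per genotype). This did not pass the threshold of 0.05 (limma, adjusted p = 0.892 over all genes). After quantile normalization of the profiles the difference was -0.14. In this comparison 0% of genes passed, and 5.50% had an unadjusted p under 0.05. In TA cells the order was opposite, with 9353 and 8469.7 TPM in the KO animals, against 7450.1 and 7337 TPM in the WT animals. Both KO animals lay above both WT animals, as did 26.7% of 6791 genes, and the difference of 0.27 ± 0.23 (SE) did not pass (limma, adjusted p = 0.763), where 0.0589% of genes did. After quantile normalization, which sets a value by its rank, it was 0, as Olfm4 had rank 4 in every animal.

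The step from Stem to TA was nearer 0 in both KO animals by value. TA minus Stem on the log2 scale was -0.70 and -0.62 in the KO animals, against -1.23 and -1.33 in the WT animals, a separation of 0.62 (KO minus WT). In run 1 alone the separation was 0.56, and in run 2 alone it was 0.15 with the groups overlapping. The share of all genes with such a separation in this step was not computed. The decline was among the features by which Olfm4 was chosen, so these values carry no test.

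The Stem difference was not alike in the runs. In run 1, Stem cells had 19151 and 18709.8 TPM in the KO animals, the second from 4 cells, against 18521 and 18455 TPM in the WT animals. In run 2 they had 11934 and 11396 TPM in the KO animals, against 16799 and 18331 TPM in the WT animals. Both KO animals were therefore slightly above WT in run 1 and below WT in run 2. KO minus WT was 0.03 (limma, adjusted p = 0.991) in run 1 and -0.59 ± 0.071 (SE) in run 2, where Olfm4 alone passed among 6615 genes (limma, adjusted p = 0.00387, 0.0151% of genes). Because Stem levels were part of the decline that singled Olfm4 out, this run 2 call is no independent evidence of a difference. The difference between runs was itself -0.62 ± 0.26 (SE) over the 8 combinations of animal and run and did not pass (limma, adjusted p = 0.876), and 0% of 6797 genes did, with 4.78% at an unadjusted p under 0.05. That comparison was added after the data had been seen.

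In run 1, TA cells had 10499.9 and 10650.1 TPM in the KO animals, against 7040.3 and 6992 TPM in the WT animals. In run 2 they had 8426 and 3953 TPM in the KO animals, against 8024 and 7600.5 TPM in the WT animals. KO was above WT in run 1 with no overlap and overlapped WT in run 2, where KO M2 had 14 cells and the lowest value. The difference between runs was -1.03 ± 0.46 (SE) and did not pass (limma, adjusted p = 0.881, 0% of 6787 genes, 5.27% at an unadjusted p under 0.05).

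**Figure D4:**
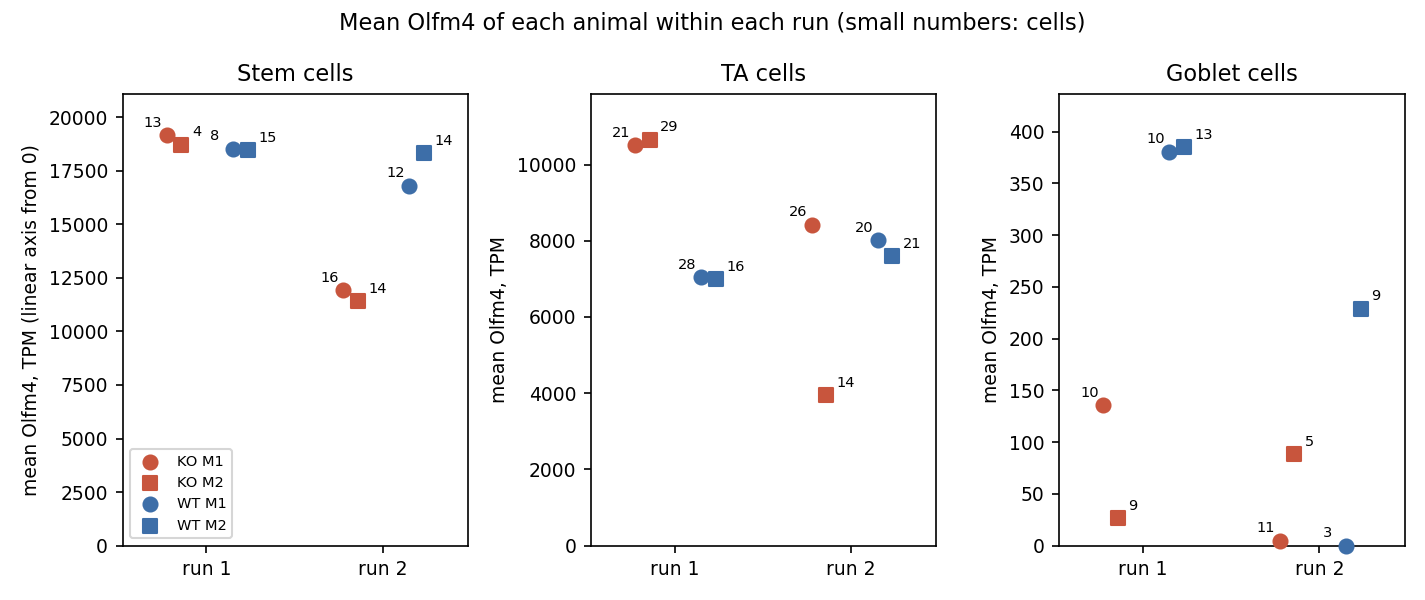
Mean Olfm4 in TPM of each animal within each run for Stem, TA and goblet cells, on linear axes from 0, with KO (red) left of WT (blue), circles for M1, squares for M2 and the number of cells beside each point. In Stem cells KO and WT lie together in run 1, and both KO animals, at 11934 and 11396 TPM, lie below WT in run 2.

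Goblet cells gave the only call for Olfm4 with both runs pooled. The means of 67.4 and 48.8 TPM in the KO animals, against 292.9 and 321.4 TPM in the WT animals, differed by -2.40 ± 0.31 on the log2 scale (SE; limma, adjusted p = 0.0225). Olfm4 was the only one of 6208 genes to pass (0.0161%), and the groups did not overlap, as was the case in this direction for 20.1% of genes. Because goblet levels were among the features that singled Olfm4 out, this call is no independent evidence of a difference. It rested on single cells: the highest cell held 1125 and 337.5 TPM in the KO animals, against 3372 and 4751 TPM in the WT animals. Without these cells the means were 14.5 and 26.6 TPM in the KO animals, against 36.3 and 110.4 TPM in the WT animals, and the difference of -1.64 did not pass (limma, adjusted p = 0.80003). With WT M1 left out the difference was -2.47 and with WT M2 left out -2.33, and neither passed (limma, adjusted p = 0.0820 and 0.292). The share of goblet cells above 0 TPM was 23.8% and 50% in the KO animals, against 38.5% and 45.5% in the WT animals, which overlapped. KO minus WT was -2.64 in run 1 and 0.61 in run 2 (limma, adjusted p = 0.676 and 0.967). Paneth markers also varied within goblet cells, at 89211 and 3691 TPM in the KO animals, against 21540 and 4596 TPM in the WT animals. Without cells of over 3% Paneth marker TPM the difference was -2.29 (limma, adjusted p = 0.0738).

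In early progenitors the KO animals, at 519.8 and 297.7 TPM, overlapped the WT animals, at 300.5 and 549 TPM, and the difference was -0.046 ± 0.33 (SE; limma, adjusted p = 0.990, 0% of 6565 genes called, 5.51% at an unadjusted p under 0.05). Late progenitors had 335.1 and 4.775 TPM in the KO animals, against 5.28 and 31.9 TPM in the WT animals. The groups overlapped, and the difference was 1.62 ± 1.41 (SE; limma, adjusted p = 0.916, 0.0817% of 6120 genes called). KO M1 alone set its direction: without KO M1 it was -1.31, and without KO M2 it was 4.55, each from a lone KO animal. Without its top cell the KO M1 mean was 28.2 TPM, and without the highest cell of each animal the difference was -0.057. Late progenitor levels were part of the decline that singled Olfm4 out, so these values are no independent evidence of a difference.

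Enterocytes were below the filter for testing, since Olfm4 was above 0 TPM in under 10% of them. Without the filter the 319.7 and 17.6 TPM of the KO animals, against 3.66 and 0 TPM of the WT animals, gave 5.16 ± 1.49 (SE; limma, adjusted p = 0.837). The groups did not overlap, as was the case in this direction for 16.3% of 5854 genes above the filter, yet each KO mean came from 1 cell, and with these left out both KO means were 0.

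Averaged over the 6 types in which each animal had 10 cells or more, KO minus WT was 0.71 ± 0.51 (SE; limma, adjusted p = 0.764). The log2 averages were 9.82 and 7.89 in the KO animals, against 8.04 and 8.25 in the WT animals, with KO M1 high and KO M2 lowest. Of 6714 genes 0% passed, with 510 at an unadjusted p under 0.05. Without KO M2 the difference was 1.67, and without KO M1 it was -0.26, each from a lone KO animal. Whether the difference varied over the 6 types was tested by a moderated F in limma and did not pass (F = 5.14, adjusted p = 0.404, 0.0149% of 6714 genes called).

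The whole decline from Stem to enterocyte was -5.56 and -9.45 on the log2 scale in the KO animals, against -11.87 and -14.17 in the WT animals. The groups did not overlap. Without the top cell of each animal in each type, the KO minus WT difference of 5.51 shrank to 0.19. The CV over Stem cells was 50.9% and 55.4% in the KO animals, against 42.8% and 36.7% in the WT animals, again without overlap. In run 1 alone that difference was reversed, at -1.46 percentage points. The share of all genes separated in this way was not computed for the decline or for the CV. With 2 animals per genotype, such separation can arise by chance alone. The decline and the spread were among the features by which Olfm4 was chosen, so both are descriptions with no test. All Stem cells of all 4 animals were above 0 TPM.

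Olfm4 averaged over the 6 types was compared between the runs, with log2 values of 8.43 and 8.87 in KO M1, 6.94 and 8.31 in KO M2, 6.06 and 8.48 in WT M1, and 7.99 and 8.35 in WT M2, with run 2 first in each pair. Each of the 4 animal codes was lower in run 2 by this average. The difference of -1.15 ± 0.29 (SE) did not pass (limma, adjusted p = 0.290, 0.0149% of 6727 genes called), and the median of all genes was -0.19. Without KO M2 it was -1.07 and passed (limma, adjusted p = 0.0162). In this average each type weighs equally, also where Olfm4 is near 0 TPM or cells are few. Goblet cells of WT M1 had 380.8 TPM in run 1 and 0 TPM, from 3 cells, in run 2. In TA cells both WT codes were higher in run 2, at 8024 and 7600.5 TPM, against 7040.3 and 6992 TPM. Both KO codes were lower there in run 2, at 8426 and 3953 TPM, against 10499.9 and 10650.1 TPM.

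The stem cell genes usually measured with Olfm4 did not pass in either direction. Of 18 crypt base stem cell genes 17 were tested in Stem cells, 8 with positive and 9 with negative KO minus WT, and their median of -0.0058 stood beside 0.025 over all genes. Lgr5 itself differed by 0.016 ± 0.27 and Clca4, the member with the smallest p, by -0.51 ± 0.25 (SE; limma, adjusted p = 0.898). Averaged over types, 12 of 15 were positive with a median of 0.30, against 0.026 over all genes. Both KO animals lay above both WT animals in 10 of the 15, against 22% of all genes, and 0 passed in limma. Smoc2 had the smallest p there (0.35 ± 0.13, SE; limma, adjusted p = 0.596). The average over types weighs each type equally, also where these genes are near 0 TPM. Of the 18 genes, 6 passed the filter in early progenitors, 4 in late progenitors and 3 in enterocytes.

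The Notch pathway had 9 of 21 members tested in Stem cells, 4 positive and 5 negative, with 0 passing in limma and a median of -0.089. The target Hes1, a repressor of secretory fate, differed by 0.66 ± 0.42 (SE; limma, adjusted p = 0.934), the smallest p of the list. By level, Hes1 was lower at later absorptive stages like Olfm4, at 95.05 TPM in Stem cells, 73.6 TPM in TA cells and 16.97 TPM in enterocytes, and the receptor Notch1 had 30.7, 23.6 and 1.45 TPM. The ligands lay elsewhere: Dll1 was highest in goblet cells (185.98 TPM) and Dll4 in enteroendocrine cells (121.3 TPM).

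Of 12 NF-kB target genes 5 were tested in Stem cells. All 5 were lower in KO by sign, with a median of -0.67, against 0.025 over all genes, both KO animals lay below both WT animals in 3 of them, against 15.8% of all genes, and 0 passed in limma. Birc3, an inhibitor of cell death, had the smallest p (-1.21 ± 0.65, SE; limma, adjusted p = 0.898). The 16 proliferation genes had 14 tested in Stem cells, 13 positive and 1 negative, with a median of 0.42. Both KO animals lay above both WT animals in 6 of the 14, against 18.2% of all genes, and 0 passed in limma. Rrm2, a ribonucleotide reductase subunit, had the smallest p (1.04 ± 0.44, SE; limma, adjusted p = 0.897). The proliferation markers of Stem cells summed to 728 and 568 TPM in the KO animals, against 405 and 530 TPM in the WT animals, without overlap, and their part in the Stem value of Olfm4 was not tested. Neither the 13 olfactomedin family members nor 12 regeneration-associated genes had a member tested in Stem cells.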

How the data were processed

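The authors deposited TPM values per gene and cell. Per the submitters' processing notes, Bowtie, TopHat and RSEM were used, with versions, roles and genome build not given in the sources used here. Per the labels' protocols, libraries were made by SMART-Seq2, and a 10X Genomics kit is also named, whose use is unclear. All 677 columns were matched to a library by name (0 left over), and columns summed to 999999.17 to 1000000.78 TPM. Cell types are the authors'. No cell was removed and no doublet caller was run. Olfm4, the gene lists and the tests were chosen with earlier results of these data known.

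Cells are not replicates, so TPM was averaged per animal and type and transformed as log2(TPM + 1). Genes averaging 10 TPM or more and above 0 TPM in 10% of cells or more were tested in limma 3.58.1 (R 4.3.3; lmFit, eBayes with trend), as two-sided tests, and p-values were adjusted by Benjamini-Hochberg over every gene tested, with a threshold of 0.05. The p-values rest on the spread between 2 codes per genotype, drawn by eBayes toward a trend of spread over all genes tested. Without that trend the SE of KO minus WT in Stem cells was 0.31, against 0.10 with it. The goblet adjusted p was then 0.911, against 0.0225 (limma). Runs were compared over 8 combinations of animal and run with the animal as a block. Intervals are exact binomial 95% intervals and cover counting of cells only. Genes named are the 10 most alike over types, the 5 highest and 5 lowest between cells, with Gm and Rik symbols left out, and list members with the smallest p. For TA cells, the list between cells follows the rule set for Stem cells. Levels of the olfactomedin, Notch and stem cell genes printed beside Olfm4, and the cells at or above 1000 TPM, were picked after their values were seen. Alternatives were pseudocounts of 0.1 and 10, no filter and a filter of 50 TPM, averaging of log values, each run alone, 8 units, a replicate block, cells with at least 5000 genes, eBayes without trend, quantile normalization, and leaving out each animal, the run 1 cells of KO M2, Paneth-rich cells or the highest cells.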

Additional observations from a re-analysis of the deposited data

Results flagged for a closer look

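Within each genotype, the 4 combinations of animal and run were checked for a value far from the others, by Dixon's ratio on the log2(TPM + 1) scale at its 95% critical value. Of 12 groups (6 types, KO and WT) 3 stood out, and for normal values chance alone gives about 1 in 20. The WT enterocyte and goblet groups include values of 0 TPM, for which that rate need not hold. In WT Stem cells, WT M1 of run 2 was lowest at 16799 TPM, with the other 3 between 18331 and 18521 TPM. In WT enterocytes, WT M1 of run 1 was highest at 8.82 TPM. In WT goblet cells, WT M1 of run 2, with 3 cells, was lowest at 0 TPM.

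The KO minus WT difference of Stem cells took opposite signs in the runs: -0.59 in run 2 and 0.03 in run 1 on the log2 scale. The test of that difference did not pass (limma, adjusted p = 0.876).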

How the results depend on the processing

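KO minus WT on the log2 scale was recomputed under each alternative. In Stem cells it was 0.034 in run 1 alone and -0.59 in run 2 alone (limma, adjusted p = 0.00387), -0.14 after quantile normalization, and without 1 animal it ran from -0.46 to -0.24. In TA cells it was 0.59 in run 1 alone, 0.078 with 8 units, 0 after quantile normalization, -0.44 in run 2 alone and -0.28 without the run 1 cells of KO M2. In early progenitors it was 0.44 in run 1 alone, -0.76 in run 2 alone, -0.54 with log values averaged over cells, -0.16 with 8 units, -0.018 after quantile normalization, -0.48 without the run 1 cells of KO M2, -0.21 without the highest cells and 0.18 in cells with at least 5000 genes, and without 1 animal it ran from -0.48 to 0.39. In late progenitors it was 0.12 with log values averaged over cells, -0.057 without the highest cells, and ran from -1.31 to 4.55 without 1 animal.

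The goblet call was lost without a filter on low values (-2.40), with log values averaged over cells (-0.45), in run 1 alone (-2.64), with 8 units (-1.01), in cells with at least 5000 genes (-2.22), without trend (-2.40), after quantile normalization (-2.31), without the run 1 cells of KO M2 (-1.98), without Paneth-rich cells (-2.29) and without the highest cells (-1.64). It was 0.61 in run 2 alone and ran from -2.63 to -2.17 without 1 animal, passing with either KO animal left out and not with either WT animal left out.

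The average over 6 types was -0.082 with log values averaged over cells, 0.36 with a pseudocount of 10, 0.18 in run 1 alone, 0.42 with 8 units, 0.23 without the run 1 cells of KO M2, -0.37 without the highest cells, and from -0.26 to 1.67 without 1 animal. The count of genes passing for that average, 0 in limma with 510 at an unadjusted p under 0.05, became 5 in run 2 alone, 1 with 8 units, 2 with the replicate block, 4 in cells with at least 5000 genes and 1 after quantile normalization. It ran from 0 to 57 without 1 animal.

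Run 2 minus run 1 was -0.49 with log values averaged over cells, -0.76 with a pseudocount of 10, and ran from -1.41 to -0.72 without 1 animal. KO minus WT in the decline from Stem to enterocyte was 3.38 with a pseudocount of 10, 0.89 with log values averaged over cells, 1.28 in run 1 alone and 0.19 without the highest cells. The CV difference over Stem cells was -1.46 percentage points in run 1 alone.

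With the replicate block, the M code as a pair, KO minus WT was -0.35 in Stem cells (limma, adjusted p = 0.765) and -2.40 in goblet cells (limma, adjusted p = 1.9092e-09), and 0.71 for the average (limma, adjusted p = 0.903). Nothing in the labels says that a code pairs a KO with a WT animal. For each of these the cause was not tested, except that settings leaving out cells or animals rest on fewer of them. With an animal left out, the lone one is assumed to vary like the others. Late progenitors gave no value in run 2 alone. TPM keep no depth, so a value of 0 sets no limit on expression in that cell.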
